A study of Daucus carota with 10 samples.

Results

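The xylem of a carrot taproot with purple phloem, coded G, was compared with the whole taproot slice of the orange cultivar ‘H13.360IND’, coded CT. Each group had 2 libraries, so the comparison used 4 of the 10 libraries of the study, and all 36908 loci listed in the files were its members. Of these, 36089 are annotated genes, written here with the prefix LOC, and 819 lie outside the annotation. All plants were harvested at 120 days, 10 taproots of a cultivar were mixed, and 2 biological replicates were sequenced for each tissue. The other libraries came from a phloem (H), which shares its cultivar with G, and from a xylem (E) and a phloem (F) of the third cultivar. Tissue is given alike by every source, but cultivar and colour are not. The sample titles and characteristics call G ‘Purple 68’ with purple xylem, whereas the design text and the paper's letters place G in ‘Purple Haze’, whose xylem the paper describes as orange. The code letters are therefore used below. The paper mostly calls ‘H13.360IND’ orange, but its description of the cultivars also calls it yellow. G differs from CT in both tissue and cultivar, and these cannot be told apart. In whole tissue, fewer cells of a type and less RNA per cell also cannot be told apart.

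Carrot taproots carry a central xylem, which holds water-conducting vessels among storage parenchyma, inside a ring of phloem, which moves sugars. Orange colour comes from carotenoids and purple colour from anthocyanins, which are made from phenylalanine through the phenylpropanoid and flavonoid pathways, glycosylated, acylated and moved into the vacuole. Chalcone synthase opens the flavonoid branch, and leucoanthocyanidin dioxygenase forms the coloured aglycone. In plants these genes are switched on together by a complex of MYB, bHLH and WD40 proteins.

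Expression was given in FPKM, in which the fragments of a gene are divided by its exon length and by the size of its library. The 10 libraries were scaled by 13909841 to 17118788 fragments, and those of G and CT detected 24761 to 25710 loci each. DEGs were called with limma on log2(FPKM + 1) over 19456 loci, those averaging 1 FPKM or more in G or CT. A DEG needed a Benjamini-Hochberg adjusted p below 0.05 and a log2 fold change of 1 or more, or -1 or less. Log2 fold changes are G minus CT on that scale throughout and understate the change of low genes. The replicates of G differed more than those of CT, with an SD of the log2 replicate difference of 0.64 in G and 0.44 in CT. A pair of genes had been set as tissue markers. The study had already described the first, from these same libraries, as high in both xylems against H. Its values are therefore no independent check of tissue. The xylem gene LOC108209686 (bHLH71-like) had 35.8 and 50.5 FPKM in G and 52.5 and 16.4 FPKM in E, against 7.22 and 3.52 FPKM in H, 11.2 and 7.22 FPKM in F and 11.5 and 12.3 FPKM in CT. The phloem gene LOC108225351, annotated as like APL, a regulator of phloem identity in Arabidopsis, went against its tissue. It had 4.87 and 5.83 FPKM in G, 0.208 and 0.283 FPKM in H and 1.27 and 1.70 FPKM in CT.

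A total of 2592 DEGs were found between G and CT, 13.3% of the loci tested. Of these, 1043 were higher in G (5.36% of the loci tested) and 1549 were lower (7.96%). The DEGs higher in G had a median log2 fold change of 1.74, and 123 of them reached 3. Those lower in G had a median of -1.46, and 76 of them reached -3. In none of the 2592 did the G and CT libraries overlap, which a call from 2 libraries against 2 makes likely. Of all loci, 45.1% had both G libraries below both CT libraries, so that order was common without a call. The share with both G libraries above both CT libraries is not given here. The balance between the directions depended on the scaling between libraries, since the median log2 fold change of all loci tested was -0.23. After median centring, 1613 DEGs were higher in G and 866 lower, and after quantile normalization 1320 were higher and 988 lower. With any single library of the 4 left out, 0 DEGs were called by limma, with 3732 to 8671 loci at an unadjusted p below 0.05.

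The fold change also varied with gene length. Loci with at most 1135 bp of exon had a median log2 fold change of 0.17, and 11.1% of them were DEGs higher in G and 5.91% DEGs lower in G. Loci with at least 2311 bp had a median of -0.67, and 0.885% of them were higher in G and 13.36% lower. Between H and CT, which share the CT libraries with this comparison, the median was 0.12 in the shortest quartile and -1.08 in the longest. Within G, replicate 1 minus replicate 2 also varied with length, with a median log2 difference of 0.10 in the shortest quartile and -0.41 in the longest. After adjustment of each library for length by a spline, an alternative chosen after the data were seen, 1096 DEGs were higher in G and 857 lower, and 1650 of the DEGs were called in the same direction as without it. The part of length in the balance of rises and falls was otherwise not tested.

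**Figure D1:**
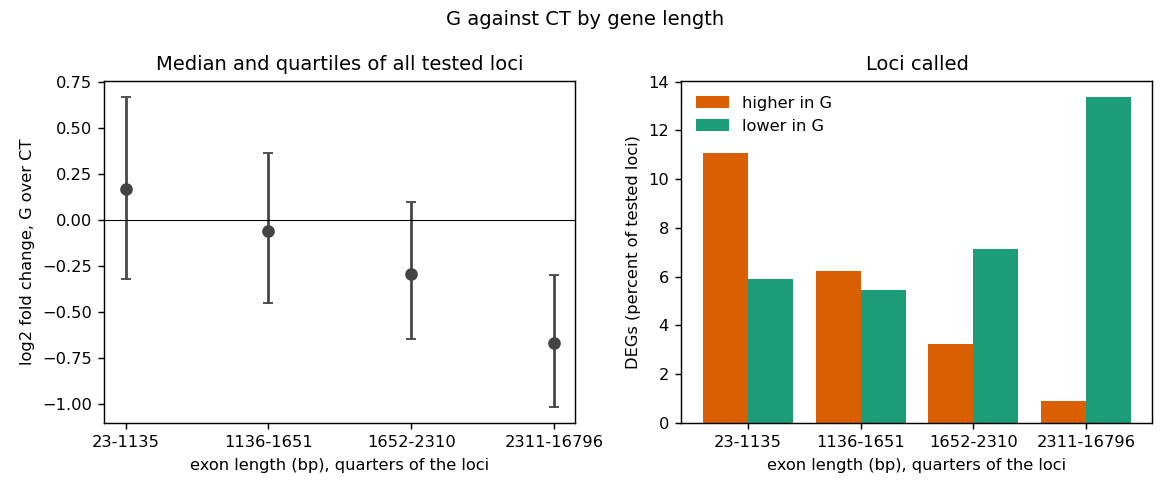
Log2 fold change of G over CT (left, dots are medians and bars run from the lower to the upper quartile of the loci) and percent of loci called as DEGs (right) in the 4 quartiles of the tested loci by exon length in bp. The median falls through the quartiles, at 0.17, -0.06, -0.30 and -0.67, and DEGs higher in G make up 11.1% of the shortest quartile and 0.885% of the longest.

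Several anthocyanin genes were higher in G, with named genes from chalcone synthase to transport among them. Of 21 structural genes listed by the study, 17 were expressed highly enough to be tested. Of these, 8 were higher in G (47.1%, beside 5.36% of all loci) and 2 lower (11.8%, beside 7.96%). Their median log2 fold change was 1.47, beside -0.23 for all loci. From chalcone synthase onwards 13 genes were tested, with 8 higher (61.5%) and 2 lower (15.4%), and of the steps before it 4 were tested and 0 were called by limma. Whether the steps differ from each other was not tested. The list was drawn up by the authors on libraries that include these. Those first steps are shared with other phenolic compounds. PAL4 (phenylalanine ammonia-lyase) had 16.0 and 4.83 FPKM in G, against 6.15 and 18.2 FPKM in CT, C4H1 (cinnamate 4-hydroxylase) had a log2 fold change of 0.59 ± 0.48 (SE), and 4CL3-1 (4-coumarate-CoA ligase) one of 0.95 ± 0.35. The replicates of PAL4 overlapped between the groups.

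For each enzyme of the early flavonoid steps at least 1 copy was higher in G. CHS1 (LOC108200622) had 78.9 and 74.8 FPKM in G, against 8.40 and 8.72 FPKM in CT. This was a log2 fold change of 3.02 ± 0.17 (SE), with an adjusted p of 0.00942 by limma. Chalcone isomerase, which closes the ring of the chalcone, was higher in both its copies, with CHI1 at 19.0 and 13.2 FPKM in G, against 1.76 and 2.36 FPKM in CT, and CHI2 at 34.1 and 32.6 FPKM in G, against 2.79 and 2.63 FPKM in CT. F3H1 (flavanone 3-hydroxylase) had 30.3 and 21.5 FPKM in G, against 2.58 and 1.66 FPKM in CT. F3′H1, which adds the hydroxyl group that distinguishes cyanidin, had the smallest rise of these early genes, at 5.03 and 3.26 FPKM in G, against 0.816 and 0.853 FPKM in CT. Its adjusted p by limma was 0.0366, and 0.0674 without a filter on low values.

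Among the late steps, 1 copy each of the reductase and the dioxygenase was higher. DFR1 (LOC108224780, dihydroflavonol 4-reductase) had 16.5 and 14.9 FPKM in G, against 1.84 and 2.31 FPKM in CT. LDOX1 (LOC108209615, leucoanthocyanidin dioxygenase) showed the largest rise of the pathway, with 28.9 and 27.2 FPKM in G, against 0.454 and 0.533 FPKM in CT. Its CT values rest on 9 and 13 fragments, and its log2 fold change was 4.28 ± 0.25 (SE). LOC108213096, whose Arabidopsis match UGT78D2 is a flavonoid 3-O-glucosyltransferase, had 23.4 and 14.9 FPKM in G, against 0.656 and 1.24 FPKM in CT. It is not on the list and was chosen after its values were seen.

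The listed genes of acylation and transport were both higher in G. DcSCPL1 (LOC108214129), a serine carboxypeptidase-like protein of the family that acylates anthocyanins, had 6.49 and 5.92 FPKM in G, against 0.256 and 0.138 FPKM in CT, which were 6 and 4 fragments. GST1 (LOC108205254), of a family whose members carry anthocyanins to the vacuole in other plants, had 38.3 and 23.5 FPKM in G, against 4.07 and 3.66 FPKM in CT. Both were DEGs, with log2 fold changes of 2.59 ± 0.26 and 2.67 ± 0.29 (SE).

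These levels were small beside those of H, E and F. CHS1 had 6252 and 8503 FPKM in H, 4958 and 7154 FPKM in E and 7591 and 8899 FPKM in F, and its mean in G was 1.04% of that in H. For the 8 other structural and transport genes just given from the list the mean in G was 1.64% (GST1) to 3.20% (F3′H1) of that in H, and for the UGT78D2 match it was 1.88%. Every G library lay above both CT libraries and below all H, E and F libraries for each of these 10 genes. Their place above CT follows from their choice as genes higher in G. The list itself was drawn up on libraries that include H, E and F, and the share of all loci in this order was not counted. The entry genes C4H1 and 4CL3-1 stood at 22.1% and 23.6% of H. Among the 3481 annotated genes tested that had at least 25 FPKM in every H and F library, a limit set after the values were seen, the median level in G was 95.2% of that in H, 27, the anthocyanin genes above included, were at or below the 3.20% of F3′H1 and 4 were below the 1.04% of CHS1. Whether traces of neighbouring phloem entered the xylem samples was not tested.

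**Figure D2:**
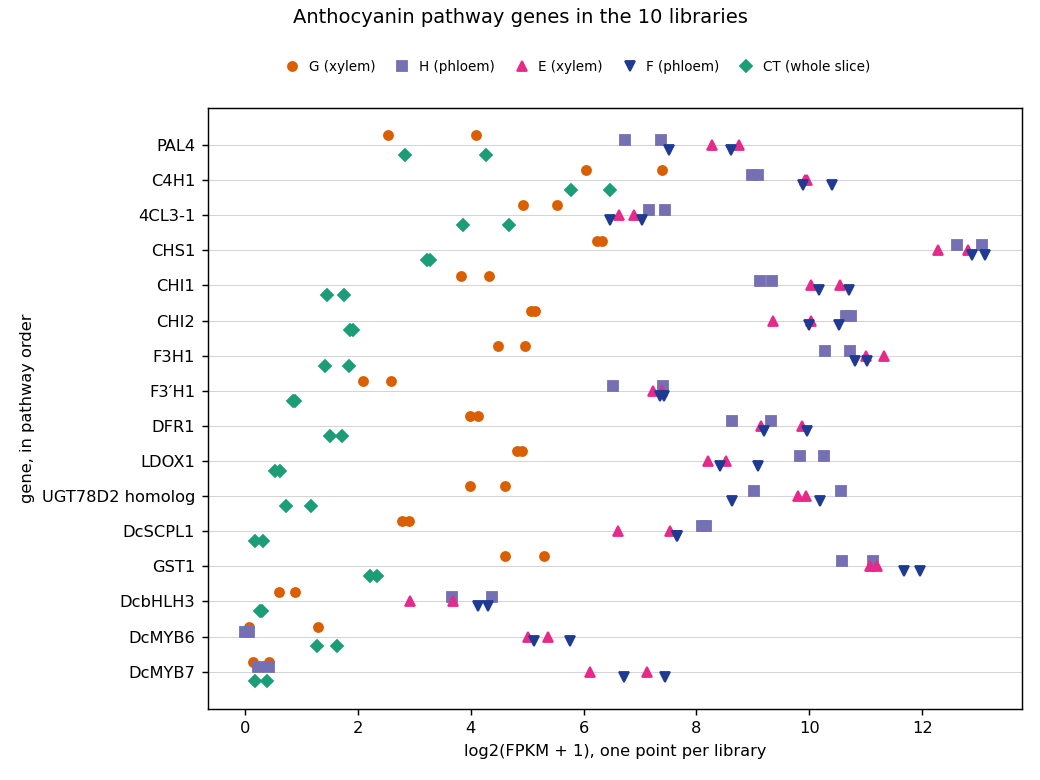
Expression of 16 anthocyanin genes as log2(FPKM + 1), with one point for each of the 10 libraries, in the order of the pathway from top to bottom, followed by acylation, transport and regulators. From CHS1 to GST1 the G points lie between those of CT and those of H, E and F, whereas G and CT overlap for PAL4, C4H1, DcMYB6 and DcMYB7.

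Of the 4 regulators listed, only DcMYB6 was expressed highly enough to be tested. DcMYB6 (LOC108192278) had 0.0569 and 1.46 FPKM in G, against 1.42 and 2.11 FPKM in CT, and did not pass the test (adjusted p of 0.272 by limma). DcMYB7 (LOC108213488) had 0.349 and 0.111 FPKM in G, against 0.127 and 0.309 FPKM in CT, below the minimum for testing. Both are R2R3-MYB genes annotated as like Arabidopsis MYB113, an activator of anthocyanin genes. They were also near 0 in H, where DcMYB7 had 0.175 and 0.338 FPKM, whereas every E and F library had at least 68.4 FPKM of DcMYB7 and 31.5 FPKM of DcMYB6. DcbHLH3 (LOC108204485), a bHLH gene, had 0.520 and 0.842 FPKM in G, against 0.198 and 0.230 FPKM in CT. Its G libraries lay above both CT libraries, at a level too low to be tested. The fourth regulator listed, LOC108208100 (MYB3-like), was under 1 FPKM in every G and CT library.

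Primers used by the study for qRT-PCR are given for CHS1 and DFR1, higher in G, and for the 2 MYB genes. Of these MYB genes, DcMYB6 did not pass the test and DcMYB7 was not tested. The study's primers for C4H1 are left out. Whether each pair matches only the copy named was not checked against a genome. The primers are given 5′ to 3′, in lower case.
CHS1 forward: gtttaggcggatgtgtgaaaaatcg
CHS1 reverse: ctcctgtgtgcaaccaaccttc
DFR1 forward: gttatcaagcctaccgtacaggg
DFR1 reverse: catttctctcttatcaatttcacc
DcMYB6 forward: ttagtggcatcctcaagtggttc
DcMYB6 reverse: actccggccatcatctcctac
DcMYB7 forward: tgaagttttgaagccccttcc
DcMYB7 reverse: tgttgttaatgtcgttgccgc

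Other copies annotated for the same steps went either way. LOC108220258, annotated as anthocyanidin 3-O-glucosyltransferase 2-like, had 48.1 and 45.6 FPKM in G, against 16.1 and 9.24 FPKM in CT, and its G libraries were above those of H, at 8.56 and 2.69 FPKM. LOC108224131, annotated as a putative dihydroflavonol 4-reductase but matched to the Arabidopsis farnesol dehydrogenase FLDH, was lower in G. It had 3.69 and 0.0976 FPKM in G, against 22.1 and 23.2 FPKM in CT, and was called under 6 of the 9 alternatives that keep all 4 libraries. A second glucosyltransferase-like gene, LOC108210672, had 0.182 and 0.104 FPKM in G, against 2.10 and 1.74 FPKM in CT. The copies CHS2 and CHS9, which were at 15.3 to 33.8 FPKM in F, reached at most 2.09 FPKM in any G or CT library.

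Lignin and other phenylpropanoid genes were mixed. Among 43 genes of the phenylpropanoid pathway in the study's lists, a group formed after the values were seen, 38 were tested, 8 were higher in G (21.1%, beside 5.36% of all loci) and 5 lower (13.2%, beside 7.96%). The study chose those lists on libraries that include G, so the shares are not independent of that choice. CCR1 (LOC108227809), cinnamoyl-CoA reductase, which commits phenolic esters to lignin, had 22.4 and 18.9 FPKM in G, against 6.04 and 8.61 FPKM in CT. FAH1 (LOC108225223), ferulate 5-hydroxylase of syringyl lignin synthesis, had 5.28 and 3.88 FPKM in G, against 0.426 and 0.242 FPKM in CT. As for the anthocyanin genes, G reached 2.45% of the mean in H for CCR1 and 1.84% for FAH1. The lower genes included LOC108214543, a match of the class III peroxidase PRX52, with 0 fragments in G and 2.98 and 4.60 FPKM in CT, and LOC108193059, a match of the beta-glucosidase BGLU13, with 13.6 and 8.50 FPKM in G, against 90.0 and 74.3 FPKM in CT. Of the 16 phenylpropanoid genes that the study listed on E and F, 12 were tested, and 0 were higher in G and 3 lower by limma (25%, beside 7.96% of all loci). At an unadjusted p below 0.05 there were 6, and voom called 0 higher and 3 lower.

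The largest changes lay mostly in genes to which the sources give no name. LOC108220955 had 291 and 308 FPKM in G, against 0.339 and 0.206 FPKM in CT, the largest fitted rise, at a log2 fold change of 7.88 ± 0.19 (SE). It was also expressed in H, at 86.01 and 158 FPKM, but not above 6.29 FPKM in any E or F library. LOC108195393 had 225 and 104 FPKM in G, against 0.0899 and 1.17 FPKM in CT, and 1.57 and 6.41 FPKM in H. Its mean in H was the lowest of the 15 largest rises. LOC108192385 was abundant, at 1118 and 1205 FPKM in G, against 20.8 and 26.6 FPKM in CT. The remaining 12 of the 15 largest rises had log2 fold changes of 4.82 to 6.43, and LOC108195143 lost its call under 2 of 9 alternatives.

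Among the 15 largest falls, 4 genes were lower in every G and E library than in every H, F and CT library. That G lay below CT follows from their choice as falls. How many of all DEGs or loci show this or the other pattern given below was not counted. LOC108215975 had 1.20 and 0.654 FPKM in G, against 92.3 and 215 FPKM in CT. It was low in the other xylem too, at 1.19 and 2.65 FPKM in E, and high in the phloems, at 137 and 358 FPKM in H and 634 and 406 FPKM in F. LOC108215913 and LOC108220164 showed the same order, with both G and both E libraries below 1.2 FPKM and all H, F and CT libraries above 25 FPKM. Another 4 had more than 10 times as much in both CT libraries as in any H, E or F library, and 7 showed neither pattern. LOC108214138 had 0.440 and 0.0699 FPKM in G, against 41.8 and 46.0 FPKM in CT, and at most 0.0698 FPKM in any H, E or F library. LOC108193955 gave no fragment in G, against 16.0 and 22.6 FPKM in CT, which made it at least 78.0-fold lower in G, against a limit of 3 fragments per library. The largest falls also held genes with unequal replicates, such as LOC108206707 with 32.1 and 5.61 FPKM in G, against 457 and 2254 FPKM in CT.

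**Figure D3:**
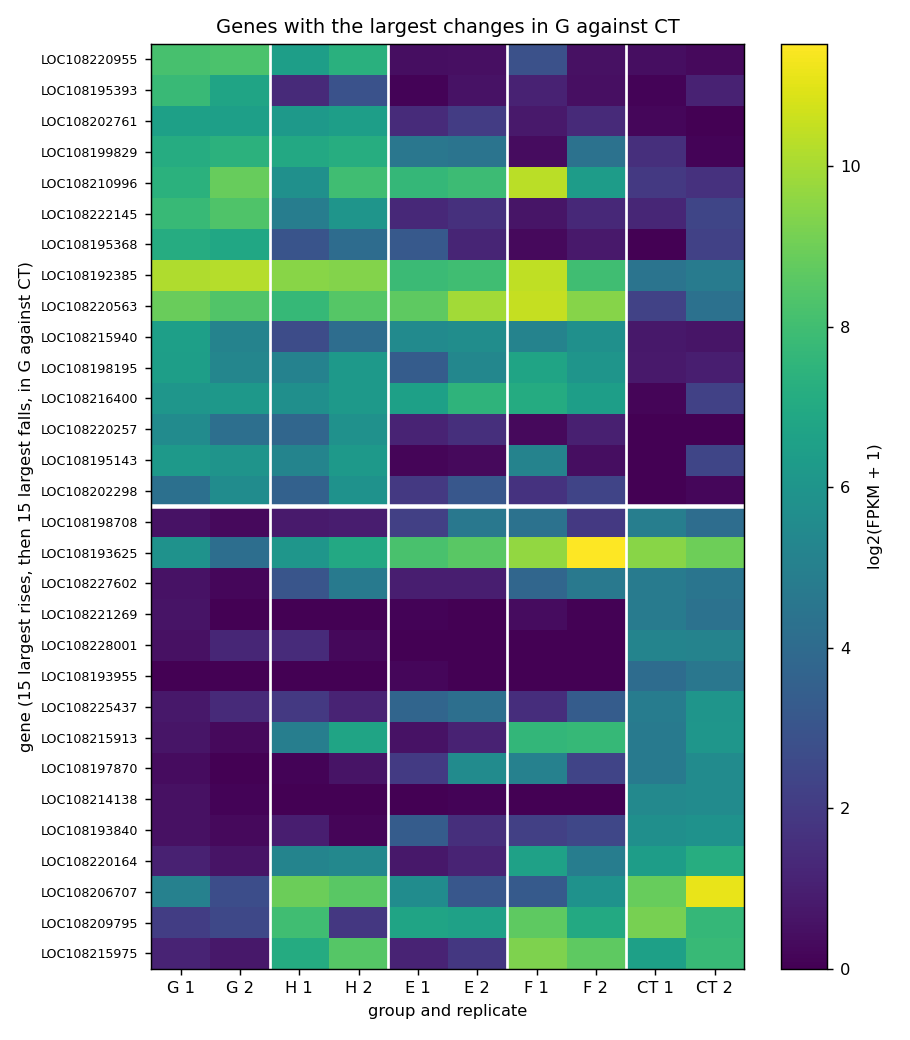
Log2(FPKM + 1) of the 15 annotated genes with the largest rise and the 15 with the largest fall in G against CT (rows) in each of the 10 libraries (columns, by group and replicate). The rises are high in G and mostly also in H, and of the falls 4 are high in the phloems and CT, as LOC108215975, 4 nearly in CT alone, as LOC108214138, and 7 neither.

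Photosynthesis genes were partly higher in G. Of 7 listed genes for photosynthesis and its antenna, 3 were higher (42.9%, beside 5.36% of all loci) and 1 was lower (14.3%, beside 7.96%). Their median log2 fold change was 1.09, beside -0.23 for all loci. The study chose the list on libraries that include G. LOC108202761, matched to LHCB6, an antenna protein of photosystem II, had 92.9 and 88.8 FPKM in G, against 0.139 and 0 FPKM in CT. It was also abundant in H, at 71.5 and 88.1 FPKM, and at most 3.10 FPKM in E and F. LOC108222802, matched to the small photosystem II subunit PSBW, had 1342 and 1434 FPKM in G, against 459 and 421 FPKM in CT, and LOC108205285, matched to PSBQ-2 of the oxygen-evolving complex, had 264 and 260.0 FPKM in G, against 119 and 127 FPKM in CT. LOC108214617, matched to PSBR, was lower, at 43.2 and 51.4 FPKM in G, against 119 and 111 FPKM in CT. Of the 9 alternatives that keep all 4 libraries, the LHCB6 match was called under 9, PSBW under 8, and PSBQ-2 and PSBR under 7 each.

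Terpenoid and gibberellin genes were few. The monoterpenoid and diterpenoid lists, chosen by the study on libraries that include G, each had 6 genes tested. In each, 1 was higher in G (16.7%, beside 5.36% of all loci) and 2 lower (33.3%, beside 7.96%). Of 6 genes of monoterpenoid synthesis, LOC108204680 (short-chain dehydrogenase SDR2) had 167 and 160.3 FPKM in G, against 81.2 and 43.9 FPKM in CT, and 2 matches of the cineole synthase TPS-CIN were lower. LOC108220105, one of them, gave no fragment in G and 4.44 and 2.15 FPKM in CT. Of 7 diterpenoid genes, the gibberellin 20-oxidase match GA20OX1 (LOC108211967) had a log2 fold change of 1.17, the match GA20OX2 (LOC108219976) one of -1.79, and GA2OX6 (LOC108223242), which inactivates gibberellins in Arabidopsis, one of -2.75. GA20OX1 and the other TPS-CIN match, LOC108211455, kept their calls under 5 of 9 alternatives each. In the carotenoid list, 1 of 5 genes tested was called, as lower in G (20%, beside 7.96% of all loci). It was LOC108210231, matched to the abscisic acid hydroxylase CYP707A2, with 0.246 and 0.0234 FPKM in G, against 4.33 and 4.15 FPKM in CT. In the lists for sesquiterpenoids, for cutin, suberin and wax and for unsaturated fatty acids 0 of 9 tested genes were called by limma, 0 were at an unadjusted p below 0.05, and voom called 0.

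Of 30 MYB and bHLH genes of the study's lists that were tested, 7 were higher in G (23.3%, beside 5.36% of all loci) and 1 was lower (3.33%, beside 7.96%). The study drew these lists, and that of GST genes, from comparisons that include the G libraries. The shares are therefore not independent of that choice. Of 13 MYB genes tested 2 were higher in G (15.4%), and of 17 bHLH genes 5 were higher (29.4%) and 1 was lower (5.88%), with medians of 0.26 and 0.71. LOC108196925, annotated as MYB1R1-like, was the most abundant, at 740.0 and 543 FPKM in G, against 126 and 184 FPKM in CT. LOC108219782 (bHLH35-like) had 199 and 203 FPKM in G, against 39.9 and 60.8 FPKM in CT, and LOC108220953 (bHLH93-like) had 104 and 101 FPKM in G, against 13.6 and 36.3 FPKM in CT. The tissue genes described above, LOC108209686 and LOC108225351, were called higher as well, and LOC108216411 (bHLH94-like) had a log2 fold change of 1.46. LOC108226497 (bHLH118-like) gave no fragment in G, against 3.13 and 2.88 FPKM in CT. Of 7 GST genes tested, GST1 among them, 2 were higher (28.6%, beside 5.36% of all loci) and 1 was lower (14.3%, beside 7.96%). LOC108195220 (GST U17-like) was higher, with 22.4 and 16.9 FPKM in G, against 3.81 and 5.78 FPKM in CT, and LOC108199307 (GST U15-like) was lower, with 11.6 and 17.9 FPKM in G, against 41.5 and 56.7 FPKM in CT.

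Some DEGs of hormone response and primary metabolism with an Arabidopsis match were chosen after their values were seen. Of 30 hormone signalling genes tested, 4 were higher in G (13.3%, beside 5.36% of all loci) and 4 lower (13.3%, beside 7.96%). They too come from lists that the study chose on libraries including those of G. The jasmonate receptor match COI1 (LOC108192397) had 196 and 176 FPKM in G, against 23.1 and 43.1 FPKM in CT, while JAZ1 (LOC108226581), a repressor of the same pathway, had 0.294 and 0.491 FPKM in G, against 6.81 and 4.69 FPKM in CT. The cytokinin response regulator ARR17 (LOC108222091) had a log2 fold change of 3.01 and the auxin-responsive SAUR32 (LOC108212070) one of -3.10. Among metabolic genes, the nitrate reductase NIA2 (LOC108215759) had 83.8 and 65.9 FPKM in G, against 2.98 and 11.02 FPKM in CT, and the sucrose synthase SUS4 (LOC108196194) had 8.17 and 7.96 FPKM in G, against 0.200 and 0.183 FPKM in CT. The UDP-rhamnose synthase RHM1 (LOC108224374) was lower, with 1.185 and 0.215 FPKM in G, against 21.3 and 23.1 FPKM in CT.

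Some loci were detected in only one of the groups. No fragment was counted in either CT library for 103 of the DEGs higher in G, of which 78 are annotated. The 6 remaining libraries took no part in that choice. Of the 103 loci, 94 gave fragments in both H libraries, 23 in both E libraries and 30 in both F libraries, whereas 96.9%, 94.1% and 96.0% of all loci tested did so in H, E and F. For 41 loci both H libraries had fragments and all 4 E and F libraries had none. LOC108207023, matched to the channel subunit SEC61 alpha of the endoplasmic reticulum, was of this kind, with 16.2 and 20.9 FPKM in G, 16.4 and 16.9 FPKM in H, and 0 in CT, E and F, which made it at least 172-fold higher in G than in CT. LOC108195175, matched to the glutamine synthetase GLN1;4, had 5.31 and 5.10 FPKM in G and 2.24 and 3.12 FPKM in H, and 0 in the other groups. In the other direction, 79 DEGs had no fragment in either G library. Of these, 41 were at 0 in both H libraries, 28 in both E libraries and 23 in both F libraries. Of all loci tested, 1.13%, 2.62% and 1.78% were so in H, E and F. The 103 loci passed the minimum level through G alone and the 79 through CT alone, with lowest means of 1.03 and 1.06 FPKM. Loci in general were not chosen for a 0, so the shares of all loci tested are no matched baseline. How far the differences follow from that choice was not tested.

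**Figure D4:**
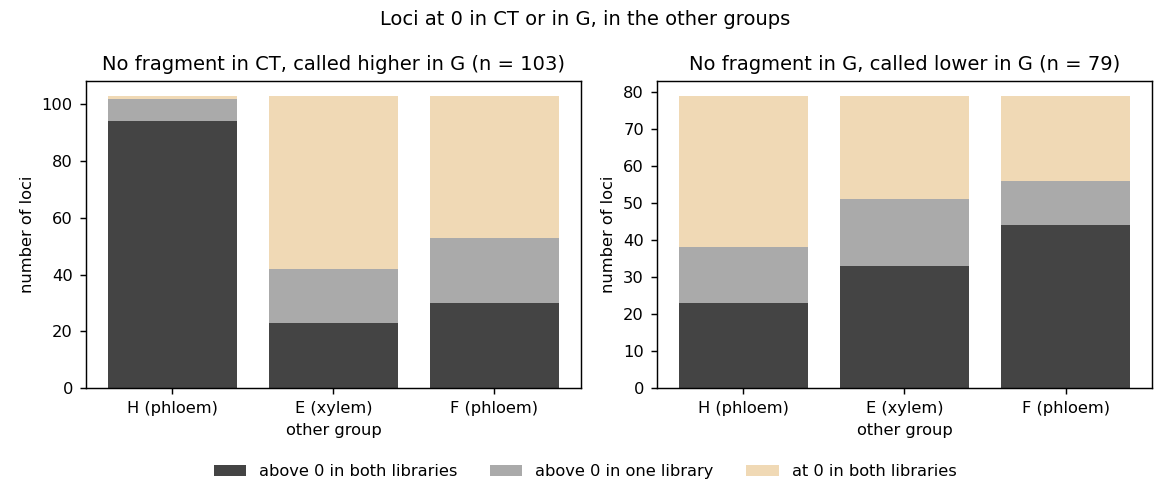
Number of loci (vertical axis) by whether they gave fragments in both, one or neither library of H, E and F (bars), for the 103 DEGs with no fragment in CT (left) and the 79 with no fragment in G (right). Of the 103, 94 gave fragments in both H libraries and 61 gave none in either E library.

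The libraries of E and F are independent of those of G and CT and allow the xylem and phloem of the third cultivar to be set beside this comparison. Of the DEGs lower in G, 1312 were tested between E and F, and in 28.7% both E libraries lay below both F libraries, in 9.60% above. The same shares were 23.0% and 13.2% for loci that were not DEGs. Of the DEGs higher in G, 832 were tested, and in 29.9% both E libraries lay below both F libraries, in 18.0% above. DEGs lower in G had a median E to F log2 fold change of -0.03 and DEGs higher in G one of -0.16, beside -0.02 for loci that were not DEGs. With limma, E and F gave 68 DEGs (0.372% of 18293 loci), 58 of them lower in E (0.317%). Of these 58, 16 were among the DEGs lower in G, and 1 was among those higher in G. Of all 18293 loci, 1312 were DEGs lower in G and 832 were DEGs higher in G. Another set had been listed by the study as differing between E and F and placed in pathways. It was drawn from the same E and F libraries and is not independent of the 58. Of its 66 tested members with both E libraries below both F libraries, 18 were lower in G than in CT. These were 27.3%, beside 7.96% of all loci. Another 2 were higher, 2.78% of all 72 members tested, beside 5.36% of all loci. Both G libraries lay below both CT libraries in 36 of the 66, beside 45.1% of all loci. The 18 included matches of the NADPH oxidase RBOHD (LOC108202881), with 0.385 and 0.367 FPKM in G, against 10.03 and 15.1 FPKM in CT, of the light-signalling factor HY5 (LOC108204232), with 6.09 and 4.09 FPKM in G, against 14.6 and 30.7 FPKM in CT, and RHM1. SUS4 was one of the 2 that were higher.

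Loci outside the protein-coding annotation were called more often. Of 371 tested loci outside the annotation, 27.8% were DEGs, with 68 higher in G and 35 lower. Among genes whose type was found in the RefSeq table, 26.6% of 541 long noncoding RNAs and 12.3% of 17848 protein-coding genes were DEGs. The noncoding RNAs had a median length of 923 bp and the protein-coding genes one of 1705 bp.

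DEGs of one direction also lay side by side. The next tested gene along the sequence was a DEG in the same direction for 113 of 966 DEGs higher in G (11.7%, beside 5.11% of annotated genes tested) and for 196 of 1501 DEGs lower in G (13.1%, beside 7.93%). Neighbouring copies of a gene family and overlapping genes can share reads, which was not examined. The longest runs held 5 genes. In one, spanning 30.7 kb, LOC108225423, LOC108225430, LOC108225409, LOC108227284 and LOC108227283 were lower in G. LOC108225423 had 0.375 and 0.119 FPKM in G, against 7.22 and 10.2 FPKM in CT, 0.0573 and 0.0595 FPKM in E, and 13.97 and 10.7 FPKM in H. In a run of 4 higher genes spanning 74.4 kb, LOC108220053 stood out, with 156 and 88.8 FPKM in G, against 2.32 and 4.503 FPKM in CT.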

How the data were processed

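Messenger RNA purified from taproot tissue was sequenced as paired ends in 10 libraries. The authors aligned reads with TopHat2 2.0.12 over Bowtie2 2.2.3, counted with HTSeq 0.6.1 and called DEGs with DESeq 1.18.0. The genome build is not given in the sources used here, and gene positions were used for the order of neighbouring genes and for spans. The deposited values were FPKM for each locus, so log2(FPKM + 1) was tested with the moderated statistics of limma 3.58.1 (R 4.3.3, variance trend on) in place of a test on counts. Each fit took the 4 libraries it compares and no others. Whole fragments were recovered from FPKM and length (tolerance of 0.01). Of 30180 loci detected, 75.17% were whole with the listed length, a shorter length was searched for 7495, and the sums came within 0.0173% of the library sizes. The limit of 3 fragments covers counting error only.

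The members, lists and tests were chosen with earlier results of these data known. Named genes were the 15 annotated DEGs with the largest rise and the 15 with the largest fall whose libraries did not overlap, the listed anthocyanin genes, and up to 4 DEGs in each direction of every other list. Product names and Arabidopsis matches came from the study's lists and covered 463 loci. Gene types came from the RefSeq table of assembly DH1 v3.0, in which 32534 of 36089 genes were matched. Tissue markers by product name were not analysed here. Alternatives were a pseudocount of 0.1, no filter, a joint fit of the 10 libraries, a replicate block, dropping the minimum fold change, quantile normalization, median centring, voom on recovered fragments, each library left out, and, after the data were seen, a length spline with 4 degrees of freedom and a crossed replicate block. Tables were made with Python and pandas, plots with matplotlib. The script was tested on simulated data.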

Additional observations from a re-analysis of the deposited data

How the results depend on the processing

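The count of 2592 DEGs between G and CT stayed within 1.5 times under a pseudocount of 0.1 (2321), no minimum fold change (3077), quantile normalization (2308), median centring (2479), voom (2741) and adjustment for gene length (1953), but was 1449 with no filter on low values and 1440 in one fit of all 10 libraries. The share of DEGs higher in G, 40.24%, was 57.19% after quantile normalization, 65.07% after median centring and 56.12% after adjustment for gene length. With 1 library left out the count was 0 in each case, as was that of listed genes called (36 with all libraries). In those fits the lone library is assumed to vary like the other group.

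Replicate numbers did not pair the libraries of G and CT, whose replicate differences correlated at 0.02 across loci. The same correlation was -0.08 to -0.07 between CT and H, E or F, -0.56 between G and H and -0.29 between E and F. With the replicate block, 2955 DEGs were called between G and CT, 4652 between H and CT, 652 between G and H and 582 between E and F. With the numbers crossed in the block, chosen after the data were seen, the last 2 gave 3095 and 566. Without a filter, H against CT gave 971, G against H 44 and E against F 13 DEGs, beside 1981, 321 and 68. In one fit of all 10 libraries, H against CT gave 3677, F against CT 3289, G against H 1453 and E against F 879 DEGs. Leaving out 1 library gave 0 to 8611 DEGs for H against CT (9 without CT replicate 1), 0 to 8074 for E against CT, 0 to 5732 for F against CT, 83 to 237 for G against H and 0 to 17 for E against F. The cause was not tested.

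Of the 64 named DEGs, 45 were called under all 9 alternatives that keep the 4 libraries, and none of the 64 changed sign under them. With no filter, a joint fit, a replicate block or no minimum fold change, the log2 fold change is that of the main fit. No sign could change under those, and dropping the minimum fold change cannot lose a call. PAL4, not called, turned to 0.04 after median centring and 0.20 after adjustment for gene length. With 2 libraries a group, a library that stands apart from its group cannot be recognised, and genes under 1 FPKM in both groups, such as DcMYB7, were not tested.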

Other observations

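Ribosomal and stress genes not described so far are given in groups formed after the values were seen. Beside 5.36% of all loci higher in G and 7.96% lower, of 10 ribosome genes tested 3 were higher in G (30%) and 0 lower, with a median log2 fold change of 1.07, and of 18 genes of protein processing in the endoplasmic reticulum 2 were higher (11.1%) and 0 lower, with a median of 0.58. LOC108211448, matched to the chloroplast heat shock protein HSP21, had 46.0 and 33.0 FPKM in G, against 6.40 and 6.02 FPKM in CT, and 346 and 228 FPKM in E. Of 15 genes of plant-pathogen interaction, 3 were higher (20%) and 3 lower (20%). LOC108193174, matched to the immune regulator EDS1B, had 31.8 and 20.6 FPKM in G, against 5.04 and 5.23 FPKM in CT. In all, 388 of the 463 loci with an Arabidopsis match or a product name were tested, and 72 were higher in G and 45 lower, a set that the study chose on libraries including those of G.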
